A study of Zea mays with 42 samples.

Results

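The 3 maize leaf arrays were compared with 15 arrays of root, stem, stem tip, ear and silk, the non-seed tissues of the series. They are 18 of the 42 arrays, which cover 14 tissues with 3 arrays each. The members are these 18 arrays, chosen by the tissue written on their labels, and 17621 of the 17734 probe sets of the Affymetrix maize array, all except 113 array controls. Every plant was of the inbred line B73 and untreated. Root, stem, stem tip and leaf were taken at the big trumpet period, a late vegetative stage, and ear and silk before pollination. The 3 arrays of a tissue are labelled as biological replicates, but the labels name no plants, plots or days. The p-values measure the spread between arrays of the same tissue, estimated jointly over all 14 tissues and 42 arrays. The position of the leaf on the plant and the hour of harvest are not given in the sources used here.

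The mature maize leaf is a C4 leaf. Mesophyll cells fix carbon dioxide into C4 acids through phosphoenolpyruvate carboxylase, and the acids move to the bundle sheath, where malic enzyme releases the carbon dioxide to Rubisco and the Calvin cycle. Both cell types hold chloroplasts, whose proteins are encoded partly in the nucleus and partly in the plastid. Root, stem, stem tip, ear and silk import sugar, and they contain dividing or elongating cells to different degrees.

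The value of a probe set is its MAS5 signal, a linear measure of brightness. Signals of a tissue are given as mean ± SD of 3 arrays. A log2 difference (± SE) is the mean log2 signal of leaf minus the unweighted mean of the 5 other tissue means. A probe set was called where limma gave an adjusted p under 0.05 and the difference was at least 2-fold. The arrays carry no counts, so the number of arrays limits the precision. A signal under 100 was treated as low but not as absence, so fitted differences that involve such signals rest on low values. For some of these genes a lower bound of the fold is given too, with values under 100 raised to 100 and no test. The highest signal on the 18 arrays was 22997, and whether differences between signals near it are compressed was not tested. Signals of different probe sets are not compared with each other. In whole organs, fewer cells of a type and less RNA per cell cannot be told apart.

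Replicate arrays of a tissue correlated at 0.929 to 0.993 in log2 signal, and the 3 leaf arrays at 0.991 to 0.993. Root replicate 1, stem replicate 2 and ear replicate 3 were the arrays farthest from the others of their tissue. Leaf mean log2 signals correlated with those of root at 0.811, silk at 0.794, stem at 0.771, stem tip at 0.736 and ear at 0.728, as a description over the tested probe sets. The control probe sets for an elongation factor gene had a log2 ratio of 3′ to 5′ signal of 1.78 in leaf, 1.81 in root and 1.95 in stem tip, but 3.85 in stem, 4.82 in ear and 5.93 in silk. The ratio rises where labelled RNA reaches less far toward its 5′ end, and it moved with the tissues. The same ratio for the GAPDH control had another order, at 0.04 in leaf, 0.43 in silk, 0.70 in ear, 0.81 in stem tip, 0.87 in stem and 1.24 in root. The elongation factor ratio was tried as a covariate, with the counts given below, and the GAPDH ratio was not. The part of these ratios in single differences was not tested further.

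Against the mean of the 5 tissues, 2599 probe sets (14.7% of those tested) were called higher in leaf and 3217 (18.3%) lower. Without the 3 arrays that stood apart, the counts were 2672 and 3288. Leaving them out changed the number of calls in any gene list below by at most 1 in either direction. Of the 1452 probe sets with a gene name, 275 (18.9%) were higher and 322 (22.2%) lower. Differences of at least 8-fold were found for 652 of the probe sets called higher and 711 of those called lower. The split between higher and lower depended on the scaling of the arrays. The share of calls that were higher was 44.7% on the signals as deposited, 49% after quantile normalization, 55.2% with each array centred on its median and 31.3% with each array centred on the hybridization controls. The median log2 difference over all probe sets moved accordingly from -0.03 to 0.01, 0.20 and -0.35, and the differences below are to be read against these shifts.

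The single-tissue comparisons shared the 3 leaf arrays. Leaf was higher than root for 2101 probe sets (11.9%) and lower for 2760 (15.7%). It was higher than stem for 2842 (16.1%) and lower for 3483 (19.8%), and higher than stem tip for 3261 (18.5%) and lower for 3481 (19.8%). Ear gave 3111 higher (17.7%) and 3900 lower (22.1%), and silk 2708 higher (15.4%) and 3188 lower (18.1%). In total 1123 probe sets (6.37%) were called higher in leaf than in each of the 5 tissues, and 1226 (6.96%) lower than in each. Of the 1123, leaf also had the highest mean of all 14 tissues, seed tissues included, for 1016. All 3 leaf arrays lay above all 15 others for 2081 probe sets (11.8%) and below all 15 for 2583 (14.7%). Another tissue went the opposite way for some calls, since 124 of the probe sets higher than the mean were called lower in leaf than in at least 1 tissue, and 46 of those lower than the mean were called higher than in at least 1.

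**Figure D1:**
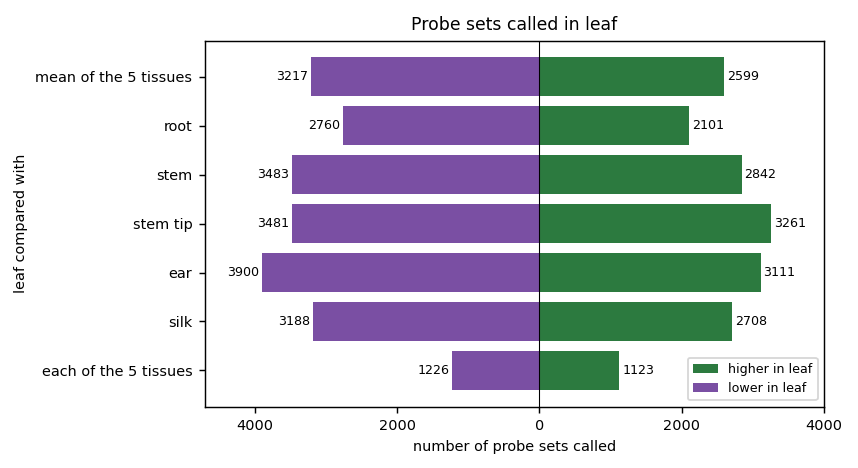
Number of probe sets called higher (right, green) or lower (left, purple) in leaf than the mean of the 5 other tissues, than each tissue, and than each of the 5 tissues at once, of 17621 tested. Ear gave the most calls in the lower direction (3900), and 1123 probe sets were higher and 1226 lower against every tissue.

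The genes of the C4 cycle were higher in leaf. Of 17 probe sets for 13 genes, 11 were called higher than the mean of the 5 tissues and 0 lower, 10 were higher than in each tissue, and the median log2 difference was 2.48, beside -0.03 over all probe sets. pep1, which encodes the phosphoenolpyruvate carboxylase of the C4 pathway, read 13795, 14086 and 13867 on the leaf arrays and 77 to 147 with a median of 100.5 on the 15 others. The groups lay far apart, with no other array above 147, and the log2 difference was 7.09 ± 0.15 (limma adjusted p = 5.7e-28). me3, the NADP-malic enzyme of the bundle sheath, read 13513, 14193 and 14741 in leaf and 71.2 to 1087 with a median of 98.5 elsewhere. The single array above 133 among the others was root replicate 1, an array that stood apart, and the difference was 7.0 ± 0.33 (limma adjusted p = 5.3e-19). The transcript of pdk1, pyruvate phosphate dikinase, read 17694, 18233 and 17955 in leaf and 171 to 2117 with a median of 348 in the other tissues, a difference of 5.36 ± 0.24. Of its 5 probe sets, 3 were higher and 2 were not called, and the reason was not tested.

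The partners of these enzymes differed in the same direction. pdrp1, the protein that switches pyruvate phosphate dikinase on and off, had leaf signals of 8933, 8883 and 9323 and read 132 to 349.5 with a median of 153 in the other arrays, with a difference of 5.68 ± 0.11. mdh6, the chloroplast NADP-malate dehydrogenase, read 12061, 12123 and 12636 in leaf, 129 ± 26.3 in root and 2883 ± 288 in silk, a difference of 4.05 ± 0.12 against the mean. The plastid dicarboxylate carriers pDCT2 and pOMT1, which move C4 acids across the chloroplast envelope, were higher by 3.96 ± 0.14 and 2.48 ± 0.10. PPCK1, the kinase that phosphorylates phosphoenolpyruvate carboxylase, was called higher than the mean (1.28 ± 0.20) and lower than ear. It read 1066, 928 and 2145 in leaf and 3824 ± 209 in ear, so leaf was not its highest tissue. Other members of the same enzyme families did not share the pattern. pep4 read 1043, 1009 and 1149 in leaf and 505 to 3003 with a median of 1368 elsewhere, with overlap and a difference of -0.29 ± 0.18. me2 read 2751, 2711 and 2567 in leaf against 3698 to 6330.1 with a median of 5078, below all others but under the 2-fold threshold (-0.90 ± 0.08). These and the other isoforms set beside leaf forms below were chosen after their values were seen.

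The Calvin cycle list holds enzymes of the cycle and also genes that act beside it, such as rca1 and ftr1. All 10 of its probe sets, for 7 genes, were called higher, 9 of them against each tissue, with a median log2 difference of 4.07. The gene rca1, Rubisco activase, read 11332, 11966 and 12643 in leaf and 70.7 to 599 with a median of 207 in the others, a difference of 5.99 ± 0.17 (limma adjusted p = 6.9e-25). The subunits of the chloroplast glyceraldehyde-3-phosphate dehydrogenase had their lowest levels in root. gpa1 read 13861, 14678 and 15937 in leaf, 77.6 ± 19.1 in root and 2654 ± 691 in silk, and gpb1 read 17826, 18352 and 18384, 98.2 ± 18.7 and 3943 ± 196 in the same order. The differences against the mean were 4.64 ± 0.25 and 4.07 ± 0.15. TPT, the triose phosphate translocator of the envelope, was higher by 4.08 ± 0.18, and ftr1, a subunit of ferredoxin-thioredoxin reductase, by 4.24 ± 0.16. bsd2, a chaperone of Rubisco assembly, was higher by 2.56 ± 0.22.

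The transcript of the Rubisco small subunit was not restricted to leaf. ssu1 read 17946, 19120.3 and 19174 in leaf, 7255 ± 454 in stem, 4389.7 ± 1631 in stem tip, 3464 ± 720.2 in ear, 11578 ± 671 in silk and 448 ± 57.9 in root. The leaf arrays lay above all others, and the difference against the mean was 2.42 ± 0.13 (limma adjusted p = 7.2e-18). Against silk it was 0.70, under the 2-fold threshold, with leaf signals near the highest on the arrays.

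**Figure D2:**
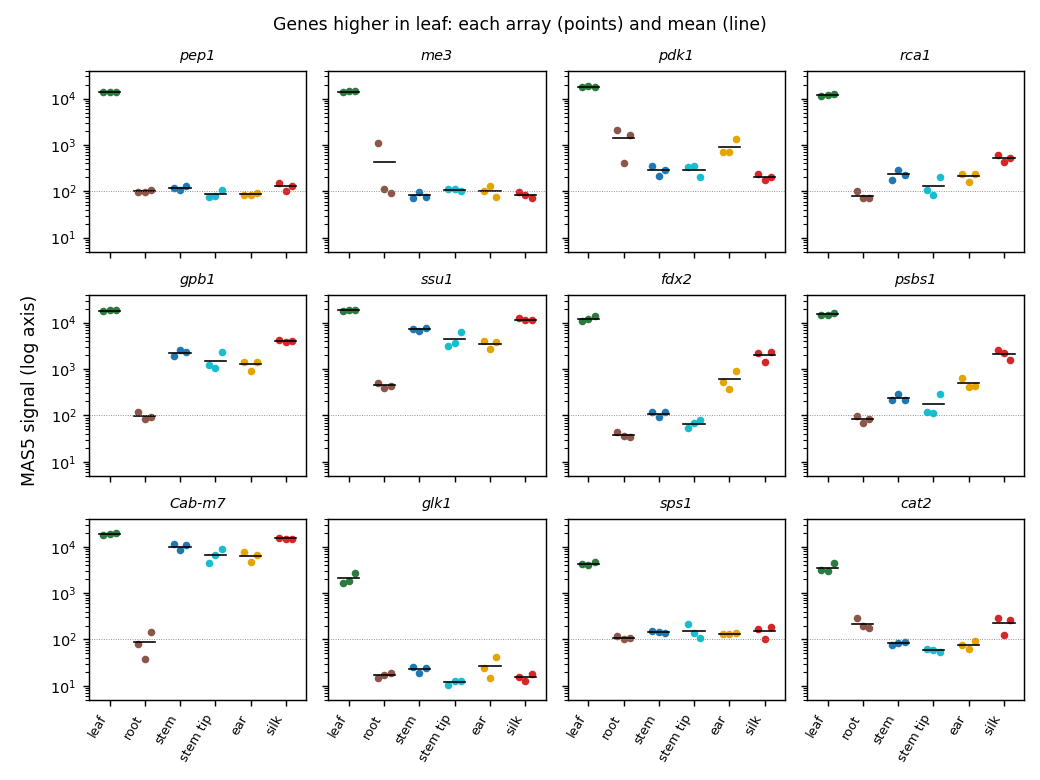
MAS5 signal (log axis) of 12 genes that were higher in leaf, on each of the 3 arrays of leaf, root, stem, stem tip, ear and silk (points) with the tissue mean (line), and a dotted line at 100. The 3 leaf points of pep1 lie at 13795 to 14086 and the 15 others at or below 147, whereas ssu1 and Cab-m7 are also bright in silk and lowest in root.

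Light harvesting and electron transport genes were higher in leaf to a degree that depended on the tissue compared. Of 24 probe sets for 16 genes, 17 were higher than the mean and 0 lower, with a median of 2.58. The median against root was 5.63, against ear 2.60, against stem tip 1.90, against stem 1.29 and against silk 0.78. fdx2, a leaf ferredoxin, read 11098, 11939.8 and 13759 in leaf and 33.7 to 2359 with a median of 118 elsewhere, a difference of 5.97 ± 0.20. psbs1, the photosystem II subunit needed for photoprotective quenching, read 14628, 14858 and 15844 in leaf, 83.6 ± 12.9 in root and 2115 ± 517 in silk (5.58 ± 0.22). L-FNRI, a leaf ferredoxin-NADP reductase, was higher by 5.06 ± 0.16. These 3 genes showed no overlap between leaf and any other array. Both probe sets of pgr5, which is needed for cyclic electron flow, were higher, by 3.94 ± 0.19 and 6.85 ± 0.20.

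Antenna genes were not confined to leaf, and root stood apart from the other tissues. Cab-m7, a chlorophyll a/b binding protein, read 18309.7, 19173 and 19408 in leaf, 10117 ± 1568 in stem, 6668 ± 2247 in stem tip, 6354 ± 1530.0 in ear and 15083 ± 649 in silk, but 86.5 ± 52.9 in root. It was higher than the mean by 2.48 ± 0.21 and was called against 3 of the 5 tissues. psan1, a photosystem I subunit, read 19751, 20803 and 21106 in leaf, 89.7 ± 19.9 in root and 10277 ± 444 in silk, a difference of 3.33 ± 0.16 against the mean. lhcb6, a minor antenna protein, differed by 2.52 ± 0.20 and was called against 4 tissues. Leaf was called higher than silk for 11 of the 24 probe sets and lower for 0, and higher than root for 16 and lower for 2.

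Other ferredoxin and reductase genes did not follow. fdx3 read 9118, 8828 and 8421 in leaf and 6162 to 10607 with a median of 7954 in the other arrays, with a difference of 0.14 ± 0.07. For fdx6, the leaf signals were 2702, 3585 and 2154 and root, with 5363 ± 2201, had the highest mean (-0.56 ± 0.12). None of the 4 probe sets of fnr1 was called.

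Of 13 probe sets for pigment synthesis genes, 12 were called higher and 0 lower, 9 of them against each tissue, with a median of 1.90. oy1, a subunit of the magnesium chelatase that commits porphyrin to chlorophyll, read 4387, 5167 and 6032 in leaf and 84.1 to 1486 with a median of 767 elsewhere, a difference of 3.04 ± 0.32. pds1, phytoene desaturase of the carotenoid pathway, read 3461, 3388 and 3730.0 against 427 to 776 with a median of 603, with a difference of 2.53 ± 0.10. The groups of both genes did not overlap. lls1, which is known as pheophorbide a oxygenase and takes part in chlorophyll breakdown rather than synthesis, was also higher (2.61 ± 0.28), although a root array at 2874 lay close to the lowest leaf array at 2878. psy2, phytoene synthase, and dxs1, which makes the precursor of plastid isoprenoids, were higher by 2.41 ± 0.14 and 2.38 ± 0.16.

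Genes for plastid gene expression and protein traffic were higher for 17 of 21 probe sets, 15 of them against each tissue, and lower for 1, with a median of 1.79. glk1, a transcription factor of chloroplast development in the GOLDEN2-like family, read 1686, 1841 and 2769 in leaf and 10.4 to 41 with a median of 17.1 elsewhere. All 15 other arrays were under 100, so leaf was at least 20.5-fold higher (fitted difference 6.85 ± 0.20, limma adjusted p = 7.9e-25). The sigma factors, which direct the plastid-encoded RNA polymerase to its promoters, were all higher: sig1 by 4.30 ± 0.21, sig2B by 4.07 ± 0.20, sig6 by 3.06 ± 0.19, sig2A by 2.98 ± 0.17 and sig3 by 1.74 ± 0.14. sig1 read 1999, 2150.5 and 2556 in leaf, 19 ± 1.65 in root and 422 ± 71.3 in silk. The gene prpl35-1, a plastid ribosomal protein, was higher by 3.38 ± 0.12, and the chloroplast RNA splicing and processing factors crs2, crp1 and crs1 by 2.84, 2.77 and 2.19. hcf106 and tha4, components of the twin-arginine translocase of the thylakoid, were higher by 1.72 and 1.39. minE, which is known for placing the plastid division site, was lower (-1.21 ± 0.10). It read 749, 815 and 676 in leaf and 2635 ± 405 in stem tip, and its values overlapped those of root. The toc34A and toc34B genes for the import receptor of the outer envelope were not called, at -0.26 and 0.0.

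Of 18 probe sets of nitrogen genes, 7 (38.9%) were higher and 3 (16.7%) lower, with a median of 0.41. The shares over all probe sets were 14.7% and 18.3%, so the lower share was near that of all probe sets. With arrays centred on their medians, 7 were higher and 1 lower. NNR1 read 9636, 9311 and 10001 in leaf and 45.1 to 896 with a median of 231 elsewhere, a difference of 5.63 ± 0.42. NIR, nitrite reductase, read 3699.6, 2813 and 4596 against 427 to 1168 with a median of 658 and was higher by 2.48 ± 0.17, with no overlap. Its second probe set was not called (0.11 ± 0.10). gln6, a glutamine synthetase, was higher than the mean (2.72 ± 0.20) but read 7178 ± 2218 in root and 6189 ± 913 in leaf. nrt2, a nitrate transporter, was lower (-1.07 ± 0.19) through root alone, where it read 1971 ± 864 while the mean of each other tissue stayed under 100.

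Of 35 probe sets of sucrose and starch genes, 10 (28.6%) were higher and 8 (22.9%) lower. The shares were 14.7% and 18.3% over all probe sets, and 18.9% and 22.2% over those with a gene name. The lower share was thus near that of named probe sets. The median was 0.17, but -0.15 with each array centred on the hybridization controls. sps1, sucrose phosphate synthase of the synthetic route, read 4225, 4082 and 4604 in leaf and 103 to 213 with a median of 136 elsewhere, a difference of 4.98 ± 0.14 (limma adjusted p = 2.3e-25). spp1, the phosphatase that completes sucrose synthesis, was higher by 1.51 ± 0.12. agpsl1, a subunit of the ADP-glucose pyrophosphorylase that starts starch synthesis, read 3803, 4673 and 4729.5 in leaf and 45.9 to 1096 with a median of 805 in the other arrays (3.26 ± 0.19). Genes for enzymes that cleave sucrose were called lower, called higher or not called. sus1, a sucrose synthase, read 1844, 1782 and 1539 in leaf and 8756 to 18967 with a median of 13236 elsewhere, a difference of -2.99 ± 0.20, and sh1, another sucrose synthase, read 1225, 1081 and 1031 against 4839.5 to 7744 with a median of 6314 (-2.47 ± 0.15). Neither gene overlapped on these probe sets, and 2 further probe sets of sh1 were not called. In contrast, sus2, a sucrose synthase too, was higher (1.29 ± 0.34). ivr2, an invertase, was lower, at -2.80 ± 0.32, but its leaf arrays spread over 285, 493 and 1265 and overlapped the others. The cell wall invertase incw3 was not called on either probe set. sut1, a sucrose transporter, was high in leaf at 4083 ± 945 and in silk at 4949.9 ± 1264, and 226 ± 27.2 to 482 ± 171 in the remaining tissues. Its probe set carries the suffix _s and may read related transcripts.

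Of 10 probe sets for catalases and peroxidases of reactive oxygen, 2 (20%) were higher and 0 lower, with a median of -0.05. The shares over all probe sets were 14.7% and 18.3%, and the genes below are given as single genes. Both calls were for catalase genes, which break down hydrogen peroxide. cat2 read 3095, 2968 and 4482 in leaf and 54.8 to 291 with a median of 90 elsewhere, a difference of 4.96 ± 0.21 with no overlap. cat3 read 14055, 13656 and 12577 in leaf and 16038 ± 957 in silk, and its difference against the mean was 1.17 ± 0.17. cat1 was not called at -0.60 ± 0.06. The ascorbate peroxidase and superoxide dismutase probe sets of the list were not called. Among 6 probe sets of genes known from leaf senescence and protein breakdown, 3 were higher and 0 lower, with a median of 0.99, but root was close to leaf. The call of see2a was lost in 11 of 35 settings, and the list had 2 higher after quantile normalization and 5 once arrays were centred by median. see2b read 7049, 5889.9 and 7336 in leaf and 5076 ± 3149.8 in root, and SAG read 11295, 11422 and 11593 and 10548 ± 147. The arrays of see2b overlapped, and those of SAG did not. Their differences against the mean were 2.53 ± 0.30 and 2.25 ± 0.28.

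Of 32 aquaporin probe sets, 5 (15.6%) were higher and 6 (18.8%) lower, with a median of -0.35. These shares were near the 14.7% and 18.3% over all probe sets, so the genes below are given as single genes. TIP4-1, a tonoplast aquaporin, read 5365, 4272 and 5631 in leaf and 33.5 to 308 with a median of 66.2 elsewhere, a difference of 6.01 ± 0.37. NIP2-2 read 9486, 9425 and 10805 in leaf and 2008 ± 834 in stem, with 63.5 ± 6.59 in ear (5.33 ± 0.28). PIP1-5, a plasma membrane aquaporin, was higher than the mean by 4.10 ± 0.28 while root, at 7247 ± 3763, had the highest mean. NIP3-1 read 259.6, 240.0 and 281 in leaf and 447 to 8625 with a median of 3422 elsewhere and was lower, at -3.24 ± 0.27, without overlap. TIP4-4 and NIP1-1 were lower, at -2.87 ± 0.39 and -2.65 ± 0.26. Among 18 probe sets of root and iron uptake genes, 3 (16.7%) were higher and 2 (11.1%) lower, again near the shares over all probe sets, and the call of IDI2, one of the lower, was lost in 13 of 35 settings. Lsi1, which is named for a silicon transporter, read 6358, 6319 and 7587 in leaf and 2819 ± 963 in root (2.98 ± 0.18), and pht1, a phosphate transporter, read 7498, 7182 and 6869 and 5151 ± 484 (2.69 ± 0.22). zrp4, known from root, was lower, at -1.56 ± 0.29.

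Defence and jasmonate genes moved in both directions. Of 33 probe sets, 10 (30.3%) were higher and 9 (27.3%) lower, beside 14.7% and 18.3% over all probe sets. The sign of their median depended on the scaling. prp4, a pathogenesis-related protein, read 10641, 7784 and 7957 in leaf and 5051 ± 1479 in root but 60.6 ± 5.75 in stem tip, a difference of 5.55 ± 0.28. stc1, a sesquiterpene cyclase, read 1066, 845 and 756 in leaf and 41.1 to 129 with a median of 72.5 elsewhere (3.61 ± 0.18), with no overlap. glu2, a beta-glucosidase, varied in leaf (393, 1300.0 and 1777), although all 15 other arrays were under 100, and leaf was at least 9.68-fold higher. The relative glu1, which releases the toxic aglycone of benzoxazinoid glucosides, had leaf signals of 1409, 2028 and 871 and read 3909.8 to 15778 with a median of 10954 elsewhere, a difference of -2.92 ± 0.21. lox1, a lipoxygenase, read 192, 252 and 132 in leaf and 523 to 10514 with a median of 3449 elsewhere and was lower, at -3.86 ± 0.31. bx1, the first step of benzoxazinoid synthesis, read 49.1, 46 and 47.3 in leaf, 4084 ± 459.7 in stem and 3241 ± 419 in stem tip, but 66.5 ± 17.7 in silk (-3.20 ± 0.40, at least 5.36-fold lower).

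Cytokinin and ethylene genes were mostly not called, at 4 (16%) higher and 2 (8%) lower of 25 probe sets. The shares over all probe sets were 14.7% and 18.3%, so the genes below are given as single genes. The cytokinin oxidase cko2, which degrades the hormone, read 914, 925 and 968 in leaf and 29.3 to 583 with a median of 70.4 elsewhere, a difference of 3.67 ± 0.29. cko3 was higher by 2.75 ± 0.34 on one probe set and not called on the other. etr2, an ethylene receptor, was lower, at -1.95 ± 0.15 and below all 15 other arrays.

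**Figure D3:**
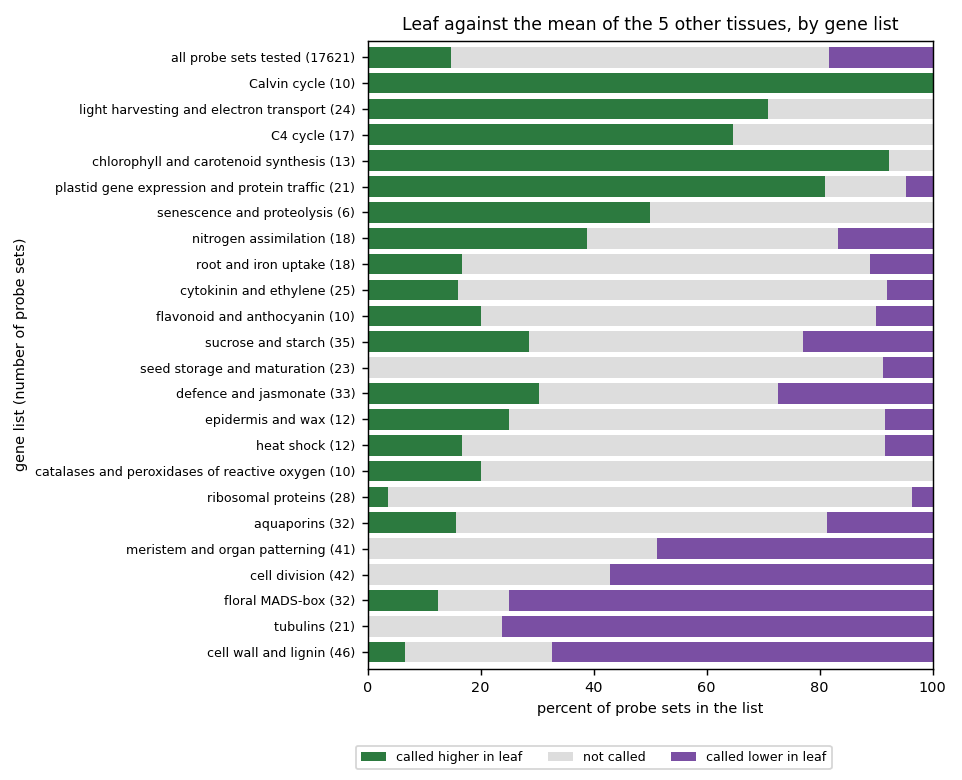
Percent of the probe sets of each gene list called higher in leaf (green), not called (grey) or called lower (purple) against the mean of the 5 other tissues, with the number of probe sets in brackets and all probe sets at the top, ordered by the median log2 difference. All 10 probe sets of the Calvin cycle list were higher, and 31 of 46 cell wall and 16 of 21 tubulin probe sets were lower.

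Genes of cell division were lower in leaf. Of 42 probe sets for 32 genes, 24 were called lower and 0 higher, 10 of them lower than in each tissue, with a median log2 difference of -1.31. his2b5, a histone H2B, read 322, 364 and 389 in leaf and 2941 to 12665 with a median of 10600.1 elsewhere, with no overlap and a difference of -4.47 ± 0.11 (limma adjusted p = 2.2e-26). kin4, a kinesin, read 63.6, 56.8 and 57.7 in leaf, 2868 ± 333 in stem tip, 234 ± 85.3 in root and 314 ± 32.9 in silk, and was lower, at -4.10 ± 0.14, at least 10.2-fold. MCM7, a subunit of the replicative helicase, read 33.7, 41.2 and 37.6 in leaf and 69.5 to 1737 with a median of 641 elsewhere (-4.0 ± 0.25, at least 6.12-fold lower). pcna2, the sliding clamp of DNA replication, was lower, at -3.22 ± 0.18, the spindle checkpoint gene mad2 at -3.54 ± 0.15, and the cyclin gene cyc3 at -3.06 ± 0.18. Root and silk lay nearer to leaf than stem tip, stem and ear did, with list medians of -0.66, -0.43, -1.93, -1.66 and -1.34 in that order. The summed signal of the division markers cyc1, cyc2, cyc3, pcna1 and pcna2 was 1681 to 1741 in leaf, 2687 to 4990 in root and 13189 to 14920 in stem tip.

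Tubulin genes, whose products form the microtubules, were lower in leaf. Of 21 probe sets for 12 genes, 16 were lower and 0 higher, 15 of them against each tissue, with a median of -2.0. tub6, a beta-tubulin, read 171, 179 and 187 in leaf and 623 to 10854 with a median of 9106 elsewhere, a difference of -5.17 ± 0.21, and its 4 probe sets agreed in the call. tub2 read 124, 108 and 121 in leaf, 6221 ± 261 in stem and 751 ± 331 in root (-4.06 ± 0.18). tua1, an alpha-tubulin, was lower, at -3.94 ± 0.20, and tua5 at -3.69 ± 0.10. tub7 was below all other arrays as well but differed by -0.49 ± 0.05, under the 2-fold threshold. Of the gamma-tubulins, which nucleate microtubules, tubg2 was not called (-0.47 ± 0.12) and tubg1 was lower on 1 of its 4 probe sets (-1.42 ± 0.14). Tubulin genes are similar in sequence, and probe sets with the suffix _x, _s or _a may read several of them.

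Cell wall and lignin genes were mostly lower in leaf. Of 46 probe sets for 38 genes, 31 were lower and 3 higher, 20 of them lower than in each tissue, with a median of -2.21. HRGP, a hydroxyproline-rich wall glycoprotein, read 138, 108 and 138 in leaf, 6195 ± 1107 in root and 19653 ± 508 in silk, with no overlap and a difference of -5.99 ± 0.49 (limma adjusted p = 9.6e-13). A second probe set of the gene gave -6.13 ± 0.48. The beta-expansins expB8 and expB4, which loosen the wall, were lower, at -5.25 ± 0.15 and -5.18 ± 0.45. expB8 read 160.0, 157 and 149 in leaf and 1349 to 11224 with a median of 7703 elsewhere. The alpha-expansin expA4 was lower, at -4.19 ± 0.28. Of the cellulose synthase genes, CesA9 read 427, 547 and 495 in leaf and 2405 to 6033 with a median of 4827 elsewhere (-3.07 ± 0.15), and cesa10 was lower, at -3.71 ± 0.39, with its highest mean in root at 3511 ± 2102. cesa6 was not called at -0.40 ± 0.16.

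Of the 3 wall genes that were called higher, 1 was higher than in each of the 5 tissues. prx42, a peroxidase, read 7656, 7276 and 7111 in leaf, 2258 ± 2746 in stem and 90.2 ± 7.13 in ear (4.59 ± 0.46). xet1, a xyloglucan endotransglycosylase, was higher than the mean by 3.69 ± 0.57 while root read 3119.8 ± 616, silk 3019.9 ± 3174 and leaf 2868 ± 327. ccr1, cinnamoyl-CoA reductase of the lignin pathway, read 9561, 10670.0 and 11179 in leaf and 7962 ± 667 in root, a difference of 2.62 ± 0.14 against the mean.

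**Figure D4:**
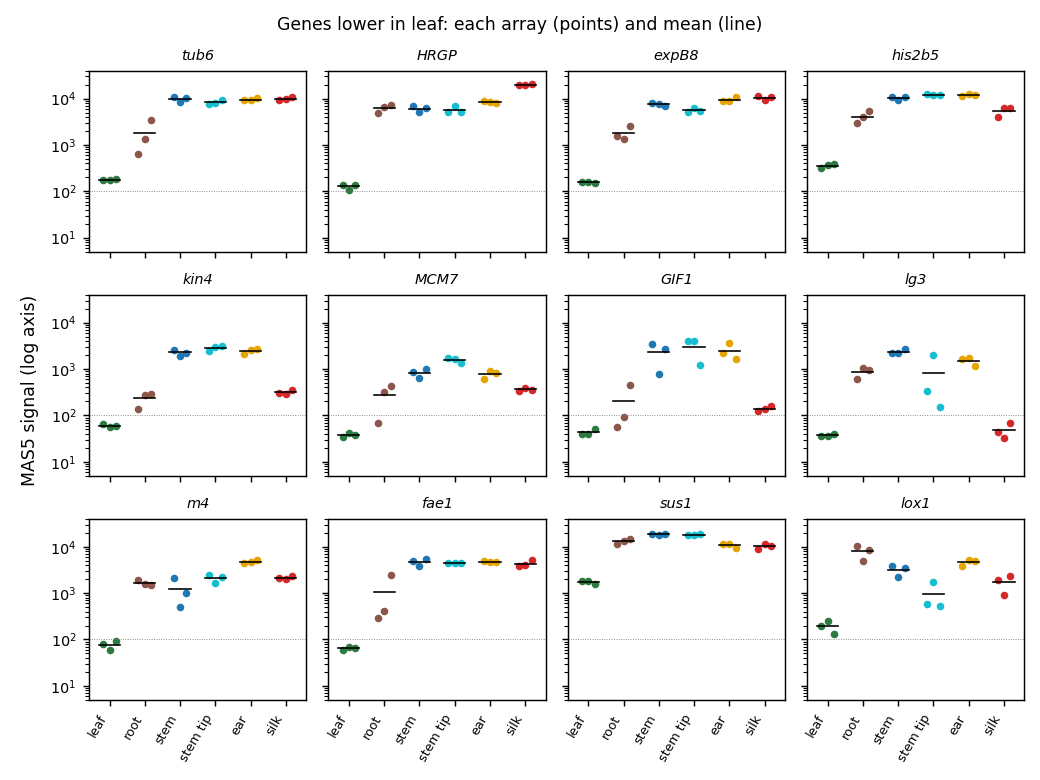
MAS5 signal (log axis) of 12 genes that were lower in leaf, on each of the 3 arrays of each tissue (points) with the tissue mean (line), and a dotted line at 100. HRGP lies at 108 to 138 in leaf and at 4963 or above elsewhere, whereas lg3 in silk lies near its leaf level and in stem tip spreads over more than a factor of 10.

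Meristem and organ patterning genes were lower in leaf to a degree that depended on the tissue compared. Of 41 probe sets for 36 genes, 20 were lower and 0 higher, but 1 was lower than in each tissue, and the median was -0.93. It was -1.69 against ear, -0.96 against stem tip, -0.68 against stem, -0.32 against silk and 0.0 against root. kn1, the KNOX homeobox gene of the shoot meristem, read 97.5, 86.1 and 88.8 in leaf, 5024 ± 591 in stem, 3710.0 ± 905 in ear and 2574 ± 2870.2 in stem tip, and 88.3 ± 15.2 in root and 127 ± 42.8 in silk. Root and silk overlapped leaf, and the difference against the mean was -3.09 ± 0.36. The stem tip arrays spread widely, since the summed signal of kn1, knox7, lg3 and lg4b ranged from 906 to 8630 among them. lg3, another KNOX gene, differed by -3.93 ± 0.34, and ub2, of the SBP-box family, by -3.67 ± 0.30. GIF1, a coactivator of growth-regulating factors, read 38.8, 38.8 and 50.6 in leaf and 57.4 to 4032 with a median of 1194 elsewhere and was the list member lower than in each tissue (-4.12 ± 0.36, at least 7.71-fold lower).

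Genes of the floral MADS-box list, a family that includes genes specifying floral organs, were mostly lower through their levels in ear and silk. Of 32 probe sets, 24 were lower and 4 higher, with a median of -1.93. Against ear the median was -4.64 and against silk -4.19, but against root, stem and stem tip it was -0.14, 0.02 and -0.13. With the mean of root and stem tip alone, 1 was higher and 4 were lower, with a median of -0.05. Only 3 were lower than in each tissue. Among them m4 read 78.5, 59.8 and 91.3 in leaf and 494 to 5055 with a median of 2094 elsewhere, a difference of -4.76 ± 0.21 (at least 20.4-fold), and m15 read 281, 254 and 246 against 607 to 5183 with a median of 2231 (-3.11 ± 0.20). zap1 was lower, at -2.61 ± 0.26, with 4209 ± 530.4 in ear. M7 read 10.4, 11 and 9.35 in leaf, 4842 ± 359.8 in ear and 9286 ± 799 in silk, and in root, stem and stem tip its means were under 100 too. m26 was a leaf and stem gene, at 3829, 3712 and 3389.9 in leaf, 3697 ± 81.9 in stem and 3837 ± 37.7 in stem tip but 69.9 ± 14.2 in ear, and was higher than the mean by 2.99 ± 0.10.

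**Figure D5:**
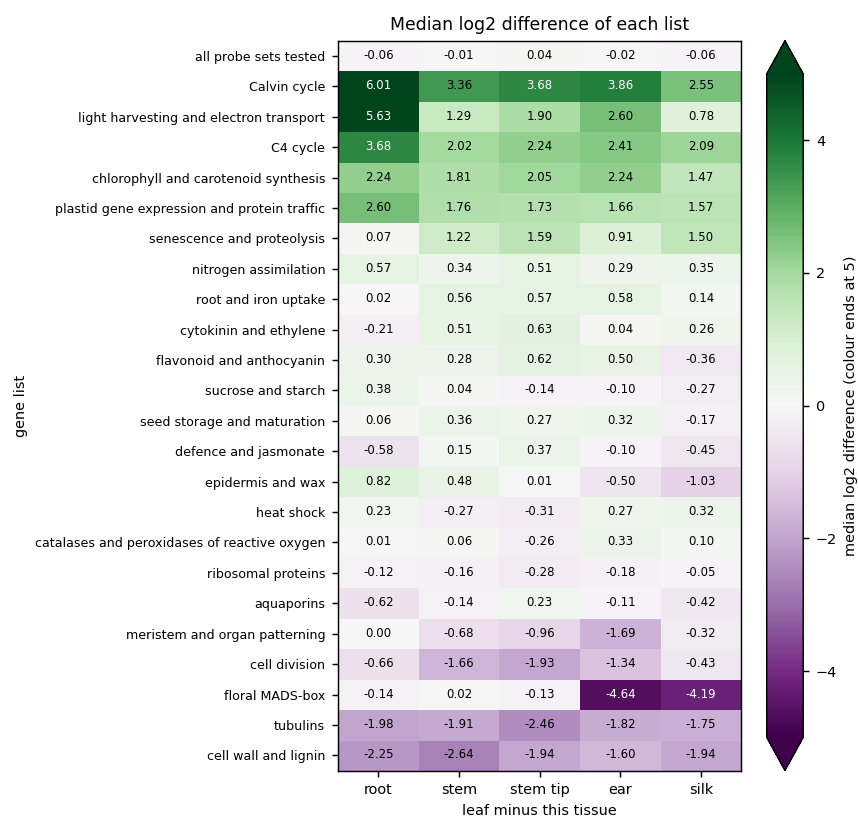
Median log2 difference of each gene list between leaf and each of the 5 other tissues (columns), printed in the cells and coloured green where leaf was higher and purple where it was lower. The Calvin cycle list is positive in every column (2.55 to 6.01), and the floral MADS-box list departs from 0 in ear (-4.64) and silk (-4.19).

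Some of the largest differences were for probe sets that are not in the gene lists above. fae1, a fatty acid elongase-like gene, read 60.3, 69.5 and 65.9 in leaf and 289 to 5427 with a median of 4459 elsewhere, so leaf was at least 30.9-fold lower (fitted difference -5.57 ± 0.28). lim1 read 45.3, 48.5 and 42.5 in leaf and 985 to 8729 with a median of 7555 elsewhere, at least 61.5-fold lower (-7.08 ± 0.23, limma adjusted p = 2.5e-23). The glutathione transferases gst12 and gst14 were lower, at -5.16 ± 0.28 and -4.99 ± 0.35. In the higher direction, LOC541622 read 9239, 10193 and 10439.6 in leaf and 11.9 to 140.2 with a median of 25.8 elsewhere (8.31 ± 0.21, at least 96-fold higher), and LOC100125656 read 15724, 10765 and 14173 against 37.3 to 108 with a median of 49.1 (7.98 ± 0.17, at least 133-fold higher). Among probe sets with no gene name here, the 2 largest differences in the higher direction were 8.77 and 8.34, and in the lower direction -6.71 and -6.67. One of the 2 in the higher direction shares the first number of its ID with the pdk1 probe set printed above. Whether it reads pdk1 was not tested. At a signal of 100, 72 probe sets were at or above it on all 3 leaf arrays and below it on all 15 others, and 25 of these were below it on the 24 seed arrays as well. The reverse held for 238.

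The study is concerned with bidirectional gene pairs, which lie head to head and share the region between them. A probe set was assigned to 562 of their genes, of which 99 (17.6%) were higher in leaf and 93 (16.5%) lower, close to the 14.7% and 18.3% of all probe sets. The median log2 difference was -0.08. In 74 pairs each gene had a probe set. Of these, both genes were higher in 7, both lower in 3 and called in opposite directions in 3, 27 had 1 gene called and 34 had none. Among the opposite pairs, GRMZM2G022248 was higher by 2.57 while its partner GRMZM2G022269 fell by 1.16, and GRMZM2G042080 was higher by 2.04 while GRMZM2G042323 fell by 1.84. In the third, the tub6 gene GRMZM2G172932, read by the probe set with the suffix _a, fell by 3.58 and its partner GRMZM2G476009 was higher by 1.63. The pair genes with the largest differences were GRMZM5G873519 (6.47 ± 0.13) and GRMZM5G808402 (5.27 ± 0.33) in the higher direction, and GRMZM2G323679 (-6.06 ± 0.31) and GRMZM2G094639 (-5.08 ± 0.36) in the lower.

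The leaf label was checked against defining markers. The summed signal of 7 mesophyll genes (pep1, pdk1, mdh6 and 4 antenna genes) was 109910 to 116329 in leaf, 45443 to 47975 in silk and 1297 to 3408 in root. That of 3 bundle sheath genes (me3, rca1 and ssu1) was 42791 to 46557 in leaf and at most 13045 elsewhere. The 5 root markers summed to 472 to 505 in leaf and 2701 to 10182 in root, with 1 of the 5 at or above 100 in all leaf arrays. Of 11 seed markers, 2 reached 100 on all leaf arrays, the same number as in each of the other 5 tissues. The part of cell composition in the differences was not tested.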

How the data were processed

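Total RNA of B73 tissues was labelled with a 3′ IVT kit and hybridised to Affymetrix maize arrays. The authors deposited one MAS5 intensity per probe set and array on a linear scale, with replicates not pooled. The MAS5 version and scaling target are not given in the sources used here, and 26 values stood at the lowest value, 1.

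Signals were taken as log2 with no offset, and control probe sets were left out, while 66 reporter probe sets were kept. Group means of all 14 tissues and 42 arrays were fitted in limma 3.58.1 (R 4.3.3) with an intensity trend, which shares the estimate of spread, and p-values were adjusted by Benjamini-Hochberg over 17621 probe sets. A call needed an adjusted p under 0.05 and a 2-fold difference. The procedure was tested on simulated data. Alternatives changed the scaling of arrays, the pseudocount (32), a filter at a signal of 100, the trend, the arrays fitted, the fold threshold, a replicate block and each replicate in turn. The log2 3′ to 5′ ratio of the elongation factor control was tried as a covariate too. Leaving out the 3 distant arrays together was chosen after seeing the data.

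Of the probe sets, 1452 had 1 gene symbol in the platform annotation, 1 had several and the rest none, and 1377 matched a RefSeq entry. For a gene with several probe sets, the one brightest over the 18 arrays was printed. The named genes were up to 3 per list and direction with the largest called differences, the 15 largest in each direction without overlap, the brightest in leaf, the leaf markers, the 3 largest pair genes in each direction and the 2 largest unnamed probe sets in each direction. Genes set beside these were chosen after their values were seen. The 23 lists hold 529 probe sets of 413 genes and were put together from gene symbols by hand, since the annotation used here held no gene titles, so their grouping differs from that first planned. The members and lists were chosen with earlier results of these data known.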

Additional observations from a re-analysis of the deposited data

How the results depend on the processing

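Without the 2-fold threshold, 5571 probe sets were called higher and 6557 lower than the mean of the 5 tissues, 4116 and 5435 against root, 5367 and 6121 against stem, 5835 and 6134 against stem tip, 5602 and 6486 against ear, 4948 and 5924 against silk, and 2066 and 2754 against each of the 5. Centring on the hybridization controls gave 1712 higher and 6464 lower against stem, and 2103 and 6090 against stem tip. Every other setting kept these counts within 1.5 times. Leaving out 1 array at a time gave 2562 to 2642 higher and 3141 to 3277 lower against the mean, and 1085 to 1132 and 1134 to 1323 against each tissue. Adding the log2 3′ to 5′ ratio of the elongation factor control as covariate changed the counts to 2535 and 3130. It kept 2336 of the 2599 higher calls and 2893 of the 3217 lower calls. The GAPDH ratio was not used as a covariate. Deviations of same-numbered arrays from their tissue means had a median r of 0.056 over 45 pairs, beside -0.025 for different numbers. Single same-numbered pairs ranged from -0.318 to 0.5, and 10 of them were above 0.1. A replicate block gave 2599 and 3217. Of 122 named probe sets, 106 lost no call in any setting, among them grp1 and PIP1-1, whose differences were under 2-fold throughout. The other 16 lost their call in at least 1 setting. Among those that lost it, cat3 did so with centring on the hybridization controls and without stem tip in the mean, minE with centring on the medians, and M7 against the mean of root and stem tip. That mean gave 2532 higher and 2973 lower, moved the median of light harvesting genes to 3.98 and of defence genes to -0.13, and left 16 meristem and 0 seed storage probe sets lower. The sign reversed for m21, a MADS-box gene (1.04, but -0.40 against the mean of root and stem tip), and for nrt2 (-1.07, but 0.11 with root left out of the mean). Promoter motifs were not run. Signal over background limits folds where one side is under 100.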

Other observations

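Of 28 probe sets of the ribosomal protein list, 26 were not called, 1 (3.57%) was higher and 1 (3.57%) lower. The shares over all probe sets were 14.7% and 18.3%, and the median log2 difference of the list was -0.12. rpl29 was the exception in the higher direction, and the compartment of its product is not given in the sources used here. It read 6425, 6603 and 7519.9 in leaf, 448 ± 176 in root and 2816 ± 129 in silk, a difference of 1.92 ± 0.11 against the mean. Of 12 heat shock probe sets, 2 (16.7%) were higher and 1 (8.33%) was lower. hsp22, a small heat shock protein, read 5846, 5470.4 and 6428 in leaf, 7796 ± 1400.4 in stem and 8407 ± 1099.9 in stem tip, but 319.7 ± 23.5 in ear, and was higher than the mean by 2.13 ± 0.21. hsp101 was lower than the mean (-1.51 ± 0.22), while root, at 207 ± 164, lay below leaf, at 597 ± 24.8, and the call was lost against the mean of root and stem tip.

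Seed storage and maturation genes gave 0 higher and 2 (8.7%) lower of 23 probe sets, and flavonoid genes 2 (20%) higher and 1 (10%) lower of 10. The shares over all probe sets were 14.7% and 18.3%. The dehydrin dhn1 read 177, 153 and 143 in leaf and 176 to 3596 with a median of 624 elsewhere, with overlap in stem tip (-2.24 ± 0.46), and its call was lost in the same comparison. Of 12 epidermis and wax probe sets, 3 (25%) were higher and 1 (8.33%), fae1, was lower. ocl3, an epidermal homeodomain gene, read 1323 ± 465 in leaf and 2948 ± 458 in silk, and was higher than the mean by 1.79 ± 0.22. Of the 75 list genes with several probe sets, 51 had the same call on each, 24 were called on some and not on others, and 0 were called in opposite directions.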
